A study of Mus musculus with 6 samples.

Results

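The circRNAs described here come from genes named as zinc finger proteins. They are the circRNAs in the authors' tables of circRNAs lower or higher in HuD KO, or in the list of circRNAs the study found bound to HuD, whose host gene symbol starts with Zfp, Zbtb, Zkscan, Zscan, Zmym, Zmynd, Zmiz, Zc3h, Zfhx, Zeb, Znf, Zfand, Zfr, Zdhhc or Zik. There were 76 of them, from 55 host genes, among 3056 circRNAs in the tables and the list and 14236 circRNA probes on the array. Of the 76, 29 were in the table of lower circRNAs, 34 in the table of higher circRNAs and 17 in the HuD-bound list. Of the 17, 4 were also in a table and 13 were in the list alone.

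RNA from the striatum of 3 adult male HuD KO mice (Elavl4 -/-) and 3 male WT littermates, labelled C57BL6, was hybridized with 1 array per mouse. HuD is a neuronal RNA-binding protein, and Elavl4 is its gene. The HuD-bound list came from other mice, HuD-OE animals that carry myc-tagged HuD under the Camk2a promoter, in which tagged HuD was immunoprecipitated from striatum. The striatum of several HuD-OE mice was pooled for each immunoprecipitation. The list therefore reflects the striatal cells in which that promoter drove the transgene. The labels give no exact age.

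A circRNA is a closed RNA ring made when the end of an exon is spliced back onto the start of an upstream exon, and the joined sequence, the back-splice junction, is what sets it apart from linear RNA of the same gene. Zinc fingers are small protein folds held together by a zinc ion. Most genes named Zfp, Zbtb or Zkscan encode DNA-binding proteins with rows of C2H2 fingers, Zc3h proteins and Zfr bind RNA, Zeb1 and Zeb2 are transcriptional repressors, Zmym proteins carry MYM-type fingers, and Zdhhc genes encode membrane enzymes that attach palmitate to proteins. The symbol alone therefore collects genes of different function.

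The junction sequences that the results turn on are printed here 5′ to 3′, as given in the authors' tables or the list. Positions are those of the tables, which name no genome build. The host symbols of all 76 circRNAs were found in the RefSeq gene table of GRCm38.p6, and 73 of the circRNAs lay wholly inside the span of their host gene there. The circRNAs of Zfp523, Zfp62 and Zfp808 accounted for the 3 that did not. The first set is from Zfp644, whose circRNAs shared a splice site. The capitals mark the 31 bases that all 5 circRNAs with the start 106634830 on chromosome 5, minus strand, had in common.
Zfp644 mmu_circRNA_014393: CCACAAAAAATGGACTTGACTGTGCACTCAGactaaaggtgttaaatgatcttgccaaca
Zfp644 mmu_circRNA_011865: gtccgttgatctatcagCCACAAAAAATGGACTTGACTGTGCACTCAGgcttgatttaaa
Zfp644 mmu_circRNA_39099: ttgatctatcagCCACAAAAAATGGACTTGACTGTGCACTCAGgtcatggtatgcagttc
Zfp644 mmu_circRNA_39100: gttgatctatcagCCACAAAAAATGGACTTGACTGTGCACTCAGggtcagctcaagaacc
Zfp644 mmu_circRNA_39101: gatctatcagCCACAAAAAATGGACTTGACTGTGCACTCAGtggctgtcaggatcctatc

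The second set is from Zmym4, the host with table circRNAs in both directions. Its sequences shared no stretch longer than 7 bases, so none is in capitals.
Zmym4 mmu_circRNA_37619: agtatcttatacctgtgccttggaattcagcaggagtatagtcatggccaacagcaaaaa
Zmym4 mmu_circRNA_37621: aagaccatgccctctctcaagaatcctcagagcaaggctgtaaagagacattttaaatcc
Zmym4 mmu_circRNA_009854: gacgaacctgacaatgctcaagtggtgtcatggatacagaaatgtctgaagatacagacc

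The third set holds HuD-bound circRNAs whose sequences overlap. For Zfp609 the capitals mark bases that both circRNAs share. For Zfp148 they mark the bases before the point at which the sequences part, where 1 has an additional base.
Zfp609 mmu_circRNA_004501: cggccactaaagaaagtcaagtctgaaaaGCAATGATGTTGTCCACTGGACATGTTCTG
Zfp609 mmu_circRNA_017858: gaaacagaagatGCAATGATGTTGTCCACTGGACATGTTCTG
Zfp148 mmu_circRNA_000155: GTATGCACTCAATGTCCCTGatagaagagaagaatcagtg
Zfp148 mmu_circRNA_19164: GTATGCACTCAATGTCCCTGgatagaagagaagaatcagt

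The last set gives the middle 30 bases for the circRNA that was lowest in HuD KO relative to WT, that of Zfp12, and for both HuD-bound circRNAs in the lower table.
Zfp12 mmu_circRNA_39625: ctatccagacccggctgcattagtccttct
Zfp426 mmu_circRNA_43813: aggtcagaagatagttttcccaggtccttc
Zfp65 mmu_circRNA_26520: cttccgttatccatcattactttctgaaca

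Levels below are log2 of the background-corrected intensity minus the 75th percentile of the circRNA probes on the same array. A change is the mean level in HuD KO minus that in WT, tested with limma, and a circRNA was called at a Benjamini-Hochberg adjusted p under 0.05 over all 13431 probes tested. Levels of different probes are not compared, since brightness also depends on the probe. Of the circRNA probes, 84.0% stood well above background on HuD KO replicate 1 and 93.8% to 96.7% on the other arrays. No circRNA spot was saturated. The unscaled 75th percentile was 180.9, 220.1 and 276.5 intensity units on HuD KO replicates 1 to 3. On WT arrays it was 163.8, 157.4 and 142.5, so every HuD KO array was brighter before scaling than every WT array. All 3 WT arrays were scanned together, HuD KO replicates 1 and 2 in another scan and replicate 3 alone, so scan and genotype cannot be told apart. No circRNA in the tables or list was named for Elavl4, so the targeted gene could not be read. Of the 10 host genes listed as markers of striatal projection neurons, Adcy5, Bcl11b and Foxp1 had circRNAs there, 5 in all, of which 2 were called lower and 2 higher. Their mean level was between 1.79 and 1.90 on HuD KO arrays and between 2.54 and 2.73 on WT arrays, a mean over circRNAs that changed in opposite directions. No marker of oligodendrocytes or microglia had one. Of the 4 markers of astrocytes only Slc1a2 had 1, with levels of 2.23 to 2.66 in HuD KO and 1.61 to 1.96 in WT. Most circRNAs in the tables and list were chosen for a change in this comparison, so these marker levels come from a selected set. The part of cell types in the results was not tested. In tissue RNA, fewer cells of a type and less RNA per cell cannot be told apart.

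Most probes on the array differed between the genotypes. Of all probes tested, 63.3% were called, 37.2% lower and 26.1% higher in HuD KO, and the groups of arrays did not overlap for 70.2%. The median change of all probes was -0.11. All 76 zinc finger circRNAs passed the filter on dim probes, and 74 were well above background on every array. Of the 76, 30 were called lower, 41 higher and 5 were not called. For 71 the arrays of both genotypes did not overlap. These counts are a description only, because the 63 circRNAs in the tables were listed there for a fold change of 2 and a p of 0.05 in the same comparison. Just inside that threshold were Zfp609 mmu_circRNA_017858 and Zc3h12b mmu_circRNA_45621, with differences of 1.02 and -1.06 in the authors' normalized log2 values. Of the circRNAs in neither table, Zfp644 mmu_circRNA_001406 and Zfp451 mmu_circRNA_19885 changed most, by 0.94 and -1.02 on the scale used here. The authors' values for these were not used, so their distance from the threshold on the authors' scale is not known here.

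**Figure D1:**
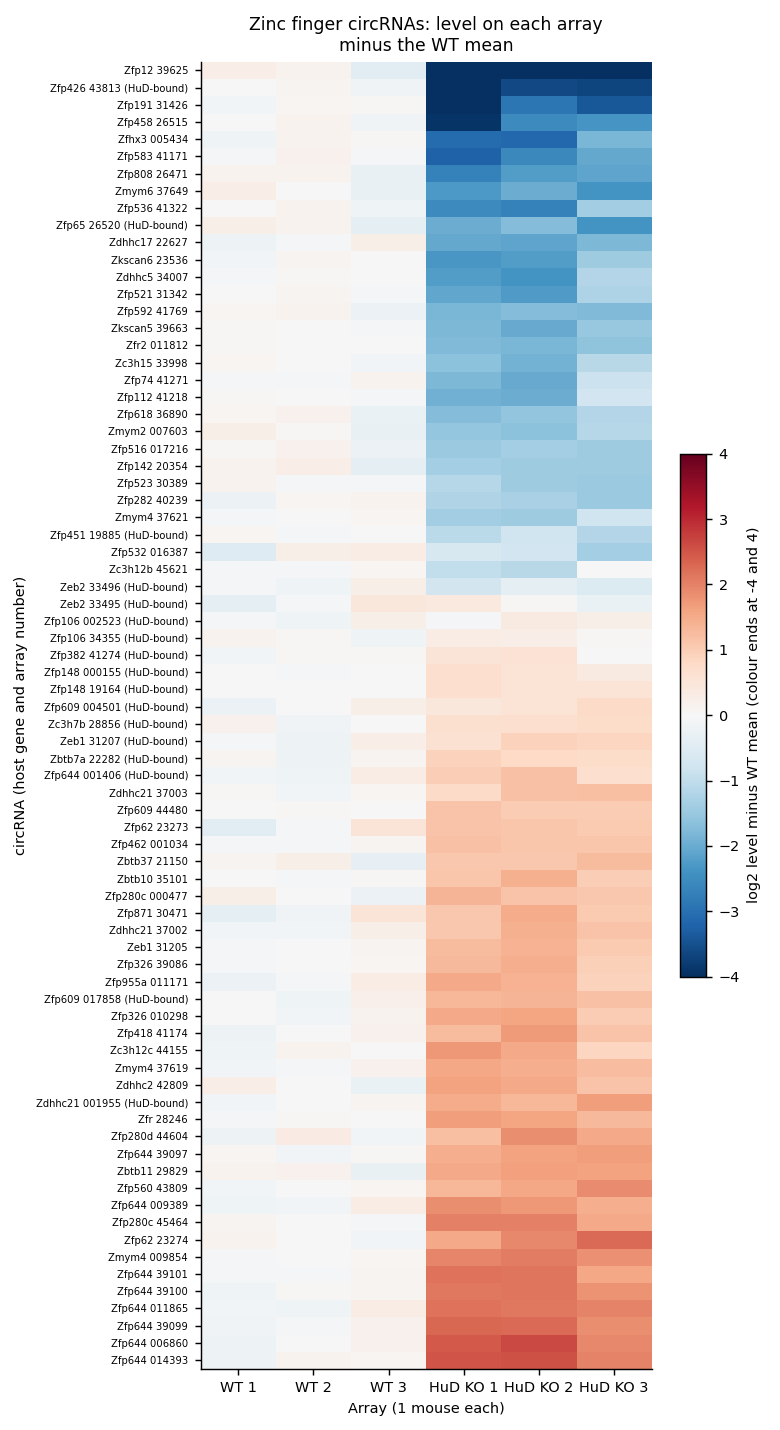
Heat map of the 76 zinc finger circRNAs (rows, ordered by change) on the 6 arrays (columns), as log2 level minus the mean of the 3 WT arrays, with blue below and red above the WT mean. The 3 HuD KO columns are mostly of 1 colour within a row. In 12 of the rows from the lower table, HuD KO replicate 3 is above replicates 1 and 2 by more than 0.5. It is paler in these rows except that of Zfp12, where all HuD KO values lie beyond the end of the colour scale.

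The lower and higher sets were built differently. The 29 lower circRNAs came from 29 hosts, 1 each. The 34 higher ones came from 20 hosts, of which 7 gave more than 1 and Zfp644 alone gave 8. Of the lower set 18 were exonic, 8 sense overlapping (from the strand of the gene but not made of whole exons), 1 intronic and 2 antisense. Of the higher set 24 were exonic, 6 sense overlapping and 4 intronic, all 4 intronic ones from Zfp644. The median genomic span was 4.16 kb in the lower and 11.6 kb in the higher set. The same order was present in the rest of the tables, with medians of 8.21 kb and 17.6 kb. There too the exonic share was smaller among lower than among higher circRNAs, 66.1% and 83.6%, against 62.1% and 70.6% for zinc finger hosts. The rest of the higher table also had more circRNAs per host than the rest of the lower table. Zinc finger hosts made up 2.15% of the lower table, 2.98% of the higher table and 2.58% of the HuD-bound list. None of these differences was tested.

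The HuD-bound circRNAs were chosen without these arrays, so their changes could be tested. Of the 17, from 13 hosts, 9 rose in HuD KO, 4 fell and 4 were not called, against 26.1% higher and 37.2% lower among all probes. The rises include the Zfp148 pair and the Zfp609 pair, whose sequences overlap, so the 17 are not all independent readings. The median change of the 17 was 0.54, against -0.11 over all probes, a gap of 0.65. All 17 were well above background on every array. Among all probes that met this, 29.9% were called higher and 31.4% lower, with a median of 0.02 and a gap of 0.52. The gap was 0.18 with quantile normalization (0.30 against 0.12) and 0.23 with normexp, a model-based background correction, and quantile normalization (0.29 against 0.06). The other 641 HuD-bound circRNAs, of which 640 were tested, had a median of 0.36, with 270 called higher and 88 lower. Whether the zinc finger circRNAs differed from the rest of the list was not tested. The direction depended on the scaling: on the circRNA control probes of the array the median was -0.17, with 2 called higher and 7 lower. That scaling moved all probes alike, to a median of -0.82 with 63.5% called lower and 6.02% higher, and left the gap at 0.65.

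**Figure D2:**
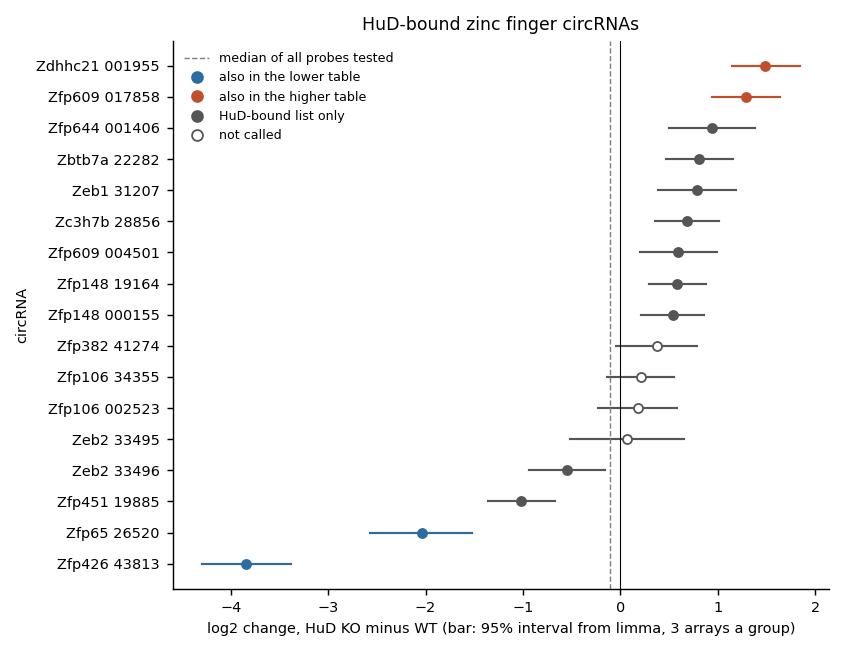
Change of the 17 HuD-bound zinc finger circRNAs (log2, HuD KO minus WT, x axis), with 95% intervals from limma and 3 arrays per group. Filled points were called, open points were not, and the dashed line is the median of all probes tested at -0.11.

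Zfp426 mmu_circRNA_43813 had the largest fall among the bound circRNAs. Zfp426 encodes a C2H2 zinc finger protein. Its circRNA is exonic and spans 3.45 kb (chromosome 9, 20473027 to 20476478, minus strand). Its level was 8.36, 8.46 and 8.21 in WT and 4.11, 4.74 and 4.67 in HuD KO. The groups were far apart relative to their spread (SD 0.13 and 0.35, n = 3 each), and the change was -3.84 ± 0.20 (SE), or 14.3-fold lower (limma, adjusted p = 2.4e-05).

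Zfp65 mmu_circRNA_26520, from another C2H2 gene, spans 2.90 kb on chromosome 13 and is classed as sense overlapping. It was at 1.86, 1.77 and 1.26 in WT and at -0.36, -0.11 and -0.76 in HuD KO. All HuD KO arrays were below all WT arrays, and the fall was 4.12-fold (log2 change -2.04 ± 0.23 SE, limma adjusted p = 0.000198). Zfp451 mmu_circRNA_19885, an exonic circRNA of 29.2 kb in neither table, was at -0.75, -0.89 and -0.83 in WT and at -1.91, -1.62 and -1.98 in HuD KO. Zfp451 encodes a nuclear zinc finger protein with SUMO ligase activity. Its circRNA fell 2.02-fold (log2 change -1.02 ± 0.15 SE, limma adjusted p = 0.000725). With no scaling between arrays it was not called (change -0.50, limma adjusted p = 0.0993), and with normexp and quantile normalization the change was -0.50 (limma adjusted p = 0.00148).

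Zdhhc21 mmu_circRNA_001955 had the largest rise among the bound circRNAs. Zdhhc21 encodes a palmitoyltransferase. The circRNA was at 1.27, 1.39 and 1.51 in WT and at 2.87, 2.72 and 3.06 in HuD KO, a rise of 2.82-fold with no overlap (log2 change 1.49 ± 0.15 SE, limma adjusted p = 0.000131). The host had a further pair of circRNAs in the higher table, mmu_circRNA_37002 and mmu_circRNA_37003, with changes of 1.22 ± 0.17 and 1.04 ± 0.17 (SE). The spans were 27.4 and 33.8 kb. The sequence of mmu_circRNA_37003 shared 30 bases with mmu_circRNA_37002, with which it has a start in common, and 31 with mmu_circRNA_001955, with which it has an end in common. Signal on mmu_circRNA_37003 is therefore not independent of the others.

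Zfp609 is the mouse counterpart of the gene whose human circRNA has been studied in muscle cells. Both of its HuD-bound circRNAs end at 65795495 on chromosome 9, and 31 of the 60 deposited junction bases were the same. The small one, mmu_circRNA_004501, spans 874 bases and was at 5.45, 5.66 and 5.90 in WT and at 6.12, 6.22 and 6.45 in HuD KO. It rose 1.51-fold (log2 change 0.59 ± 0.17 SE, limma adjusted p = 0.0163), but without WT replicate 1 the adjusted p was 0.0654, without WT replicate 2 it was 0.0561, with scan as a random block it was 0.0594, with quantile normalization 0.126 and with normexp and quantile normalization 0.0586. The large one, mmu_circRNA_017858, spans 64.5 kb and was at 3.73, 3.58 and 3.95 in WT and at 5.09, 5.11 and 4.93 in HuD KO. It rose 2.44-fold (log2 change 1.29 ± 0.15 SE, limma adjusted p = 0.00025). A further circRNA of the host from elsewhere in the gene, mmu_circRNA_44480, was in the higher table with a change of 1.05 ± 0.13 (SE), and no stretch of over 7 bases was shared with the bound pair.

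The Zfp148 pair differed by 1 base in their annotated end and gave nearly the same values. Zfp148 encodes a C2H2 factor that binds GC-rich promoters. mmu_circRNA_000155 was at 4.80, 4.74 and 4.78 in WT and at 5.45, 5.33 and 5.14 in HuD KO. mmu_circRNA_19164 was at 4.73, 4.72 and 4.74 in WT and at 5.39, 5.27 and 5.28 in HuD KO. Their changes were 0.54 ± 0.14 and 0.58 ± 0.13 (SE), with limma adjusted p of 0.0109 and 0.00475. With quantile normalization neither was called (changes 0.28 and 0.29, limma adjusted p = 0.175 and 0.101). The first was also not called with normexp and quantile normalization (adjusted p = 0.204) or with scan as a random block (adjusted p = 0.0507). Since the sequences run together apart from that base, both probes can be counted as 1 reading.

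Bound circRNAs of Zbtb7a, Zc3h7b, Zeb1 and Zfp644 also rose without overlap between the groups. Zbtb7a, a BTB-domain repressor of transcription, gave mmu_circRNA_22282, at 0.53, 0.23 and 0.54 in WT and at 1.34, 1.24 and 1.17 in HuD KO (change 0.81 ± 0.15 SE, limma adjusted p = 0.00205). Zc3h7b, an RNA-binding CCCH protein, gave mmu_circRNA_28856, at 1.09, 0.79 and 0.90 in WT and at 1.57, 1.60 and 1.67 in HuD KO (change 0.68 ± 0.14 SE, limma adjusted p = 0.00358). The Zfp644 one, mmu_circRNA_001406, was at 1.19, 1.11 and 1.58 in WT and at 2.27, 2.45 and 1.97 in HuD KO (change 0.94 ± 0.19 SE, limma adjusted p = 0.00345). In each of these, the lowest HuD KO array was above the highest WT array. With scaling on the control probes, which lowered all probes, none of these or of the Zeb1 circRNA was called (changes 0.11 for Zbtb7a, -0.02 for Zc3h7b, 0.23 for Zfp644 and 0.09 for Zeb1).

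Zeb1 and Zeb2, related repressors known from the epithelial-mesenchymal transition and from neural development, did not give the same reading. Zeb1 mmu_circRNA_31207 was at 0.46, 0.34 and 0.80 in WT and at 1.13, 1.44 and 1.39 in HuD KO, a rise of 0.79 ± 0.17 (SE, limma adjusted p = 0.00488). Its other circRNA, mmu_circRNA_31205, was in the higher table alone with a change of 1.23 ± 0.15 (SE). Zeb2 mmu_circRNA_33496 was at -1.28, -1.37 and -0.97 in WT and at -1.94, -1.58 and -1.74 in HuD KO, a fall of 0.55 with a narrow gap between the groups (limma adjusted p = 0.0218). That call was lost without HuD KO replicate 1 (adjusted p = 0.0679), without WT replicate 3 (adjusted p = 0.0612) and with scan as a random block (adjusted p = 0.091). It was also lost with quantile normalization (adjusted p = 0.119), with normexp and quantile normalization (adjusted p = 0.182), with median scaling (adjusted p = 0.105) and with no scaling, where the change was -0.03 (adjusted p = 0.923). Zeb2 mmu_circRNA_33495 overlapped between the groups, with -1.33, -1.04 and -0.50 in WT and -0.56, -0.90 and -1.21 in HuD KO. The 95% interval of its change was -0.52 to 0.65 (limma adjusted p = 0.827). The difference between the hosts was not tested.

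The other 3 bound circRNAs that were not called came from Zfp106, which encodes an RNA-binding protein needed for the upkeep of motor neurons and muscle, and from Zfp382. Zfp106 mmu_circRNA_34355 was at -0.15, -0.24 and -0.45 in WT and at 0.02, -0.02 and -0.23 in HuD KO, with a 95% interval of -0.14 to 0.55 for the change (limma adjusted p = 0.257). For Zfp106 mmu_circRNA_002523 the interval was -0.23 to 0.58 (adjusted p = 0.404 in limma), and for Zfp382 mmu_circRNA_41274 it was -0.04 to 0.79 (limma adjusted p = 0.102). Zfp382 was called higher under 6 alternatives, with changes of 0.72 with quantile normalization, 0.43 with normexp and quantile normalization, 0.58 with median scaling, 0.89 with no scaling, 0.52 with array weights and 0.55 without HuD KO replicate 3 (limma adjusted p from 0.00195 to 0.0232). These intervals leave room for changes of the size seen in several circRNAs that were called.

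The rest were listed in the authors' tables for this comparison, and their values are given as a description with no test. Zfp644 was the host with the most circRNAs in the higher table, 8, followed by Ptpn4 with 7. Zfp644 encodes a C2H2 zinc finger protein. With the HuD-bound one, its 9 circRNAs covered 63.9 kb of chromosome 5 from 106618070 to 106682010. Their changes ranged from 0.94 to 2.35.

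**Figure D3:**
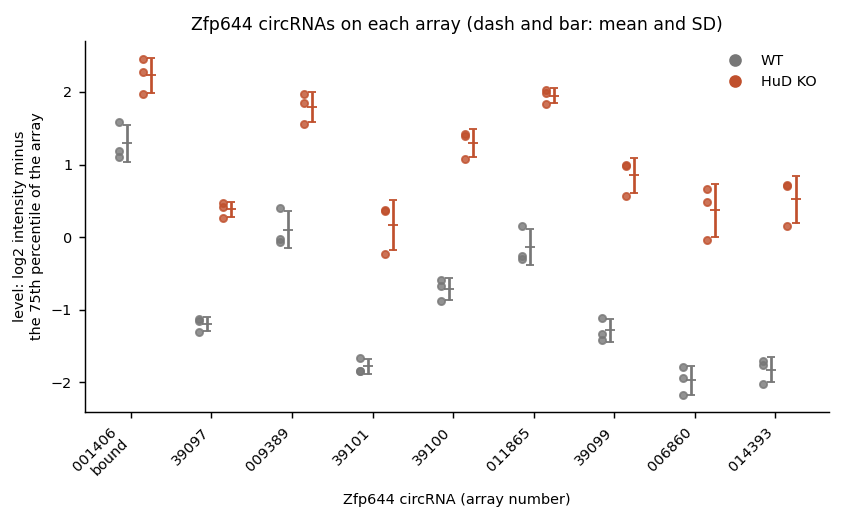
Level of the 9 Zfp644 circRNAs on each array (points, with mean and SD of 3 arrays beside them), ordered by change, with WT in grey and HuD KO in orange. In each circRNA the HuD KO arrays lie above the WT arrays. Levels of different circRNAs are not comparable.

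Zfp644 mmu_circRNA_014393, which spans 3.81 kb, and mmu_circRNA_006860 had the largest rises of the 76, and their order and that of mmu_circRNA_011865 depended on the processing. The first was at -2.02, -1.70 and -1.76 in WT and at 0.70, 0.72 and 0.15 in HuD KO, 5.11-fold higher. Inside it lies mmu_circRNA_006860, which spans 714 bases and shares neither end with the others. That circRNA was at -2.18, -1.94 and -1.79 in WT and at 0.48, 0.67 and -0.04 in HuD KO, a change of 2.34 ± 0.21 (SE). In both, HuD KO replicate 3 was the lowest of the HuD KO arrays, yet stood above all WT arrays.

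The 5 circRNAs with the common start used the same downstream splice site joined to 5 different upstream ones. Their changes lay between 1.95 and 2.35, and any pair of their sequences shared 31 to 45 of the 60 bases. An RNA of any of these junctions can therefore match a large part of the other probes, and these 5 readings are not independent. mmu_circRNA_011865 was at -0.26, -0.30 and 0.15 in WT and at 2.03, 1.98 and 1.84 in HuD KO. mmu_circRNA_39100 was at -0.88, -0.67 and -0.59 in WT and at 1.39, 1.42 and 1.07 in HuD KO. The members mmu_circRNA_39099 and mmu_circRNA_39101 changed by 2.13 ± 0.17 and 1.95 ± 0.19 (SE). With normexp, mmu_circRNA_014393 changed by 1.61, mmu_circRNA_39101 by 1.18 and mmu_circRNA_006860 by 1.52.

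The remaining Zfp644 circRNAs of the higher table had other genomic starts. mmu_circRNA_009389 spans 47.3 kb and shared 15 bases with mmu_circRNA_011865, with which it has its end in common. Its change was 1.69 ± 0.18 (SE). mmu_circRNA_39097 shared its end and 32 bases with mmu_circRNA_014393, so that it is not independent of it either, and had a change of 1.58 ± 0.14 (SE). The bound mmu_circRNA_001406 shared at most 8 bases with any other circRNA of the host, lay at the downstream end of the region, and had the smallest change of the 9.

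**Figure D4:**
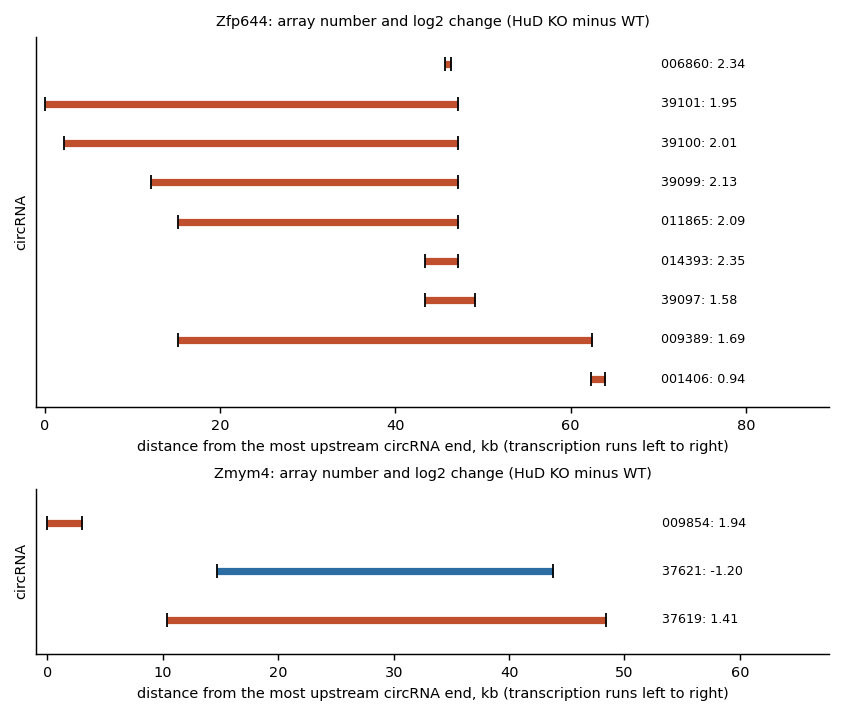
Span of each circRNA of Zfp644 and of Zmym4 as a bar along the gene, in kb from the most upstream circRNA end, in red where higher and in blue where lower in HuD KO. Each bar is named by its array number with its log2 change. In Zfp644 5 bars stop at 1 downstream end, and in Zmym4 the blue bar lies inside a red one.

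Zmym4 circRNAs moved in opposite directions although the spans of 2 of them were nested. Zmym4 encodes a protein with MYM-type zinc fingers. mmu_circRNA_37619 spans 38.0 kb and was at 0.57, 0.62 and 0.83 in WT and at 2.21, 2.13 and 1.91 in HuD KO, 2.65-fold higher. mmu_circRNA_37621 spans 29.1 kb and lies wholly inside it. It was at 2.78, 2.84 and 2.95 in WT and at 1.47, 1.43 and 2.07 in HuD KO, 2.30-fold lower. Upstream of both, mmu_circRNA_009854, with a span of 2.96 kb, was at -1.39, -1.33 and -1.24 in WT and at 0.62, 0.72 and 0.52 in HuD KO, 3.84-fold higher. For all 3 the arrays of the genotypes were apart. HuD KO replicate 3 was nearest to WT in all 3. With no scaling between arrays, the lower one kept its sign but was no longer called (log2 change -0.69). Zmym6 and Zmym2, of the same family, each had 1 circRNA in the lower table, and Zmym6 mmu_circRNA_37649 changed by -2.22 ± 0.19 (SE).

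Zfp12 mmu_circRNA_39625 had the largest change of the 76 in either direction. Zfp12 is a C2H2 gene, and the circRNA is exonic and spans 4.16 kb on chromosome 5. It was at 3.72, 3.59 and 3.01 in WT and at -2.41, -2.19 and -1.50 in HuD KO, 44.4-fold lower. Its log2 change of -5.47 was -5.04 in the authors' normalized values and -4.25 with normexp. All 6 arrays read it well above background.

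Other large falls included circRNAs with dim probes. Zfp191 mmu_circRNA_31426 and Zfp458 mmu_circRNA_26515 were well above background on 2 of 3 HuD KO arrays. Zfp191 was at -2.16, -1.97 and -1.98 in WT and at -6.57, -4.93 and -5.44 in HuD KO, and Zfp458 was at -1.61, -1.48 and -1.77 in WT and at -5.54, -4.16 and -3.97 in HuD KO. Their log2 changes of -3.61 and -2.94 were -1.34 and -1.16 in the authors' normalized values, so their size depended strongly on the processing. Zfp583 mmu_circRNA_41171 and Zfp808 mmu_circRNA_26471, above background on all arrays, changed by -2.62 and -2.36, against -1.56 and -1.58 in the authors' values.

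Zfhx3 mmu_circRNA_005434 was of another class. Zfhx3 encodes a large protein with homeodomains and zinc fingers, but the circRNA is antisense to the gene and spans 86 bases, so it is not RNA of the Zfhx3 coding strand. It was at 5.27, 5.60 and 5.49 in WT and at 2.37, 2.31 and 3.62 in HuD KO, 6.43-fold lower. HuD KO replicate 3 stood above the other HuD KO arrays and below all WT arrays. The other antisense circRNA, Zfr2 mmu_circRNA_011812, was 3.31-fold lower, with -0.89, -0.98 and -0.98 in WT and -2.71, -2.78 and -2.55 in HuD KO. Its log2 change of -1.73 was -1.15 in the authors' values and -1.03 with normexp.

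By symbol, the groups with members in both directions were Zfp (19 lower and 26 higher of 48), Zdhhc (2 and 4 of 6), Zmym (3 and 2 of 5), Zc3h (1 and 2 of 4), Zeb (1 and 2 of 4) and Zfr (1 and 1 of 2). All 4 Zbtb circRNAs were higher and both Zkscan circRNAs lower. Of all probes tested, 37.2% were called lower and 26.1% higher. The largest Zbtb change was that of Zbtb11 mmu_circRNA_29829, at -2.79, -2.78 and -3.24 in WT and at -1.42, -1.30 and -1.33 in HuD KO. Among the Zkscan genes, which encode SCAN-domain C2H2 proteins, Zkscan6 mmu_circRNA_23536 changed by -1.99 ± 0.24 (SE). In Zdhhc the largest change was that of Zdhhc17 mmu_circRNA_22627, an intronic circRNA of 793 bases, at 0.56, 0.71 and 0.98 in WT and at -1.29, -1.36 and -1.06 in HuD KO. In Zc3h it was that of Zc3h15 mmu_circRNA_33998, with a change of -1.56 ± 0.21 (SE). Zfp62, whose circRNAs share their start, had changes of 1.11 for mmu_circRNA_23273 and 1.90 for mmu_circRNA_23274. With normexp in place of the scanner's background correction, the changes of Zbtb11, Zfp62 mmu_circRNA_23274 and Zkscan6 shrank to 0.53, 0.76 and -1.12, those of the Zdhhc21 pair of the higher table to 0.54 and 0.46, and that of Zfp609 mmu_circRNA_44480 to 0.37. Most of these directions were fixed by the tables the circRNAs came from.

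**Figure D5:**
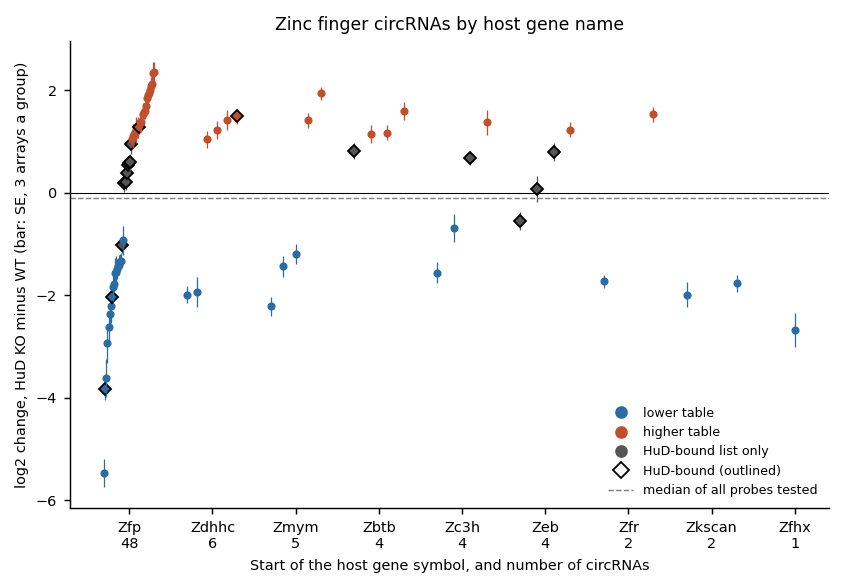
Change of each zinc finger circRNA (log2, HuD KO minus WT, y axis, bars are SE with 3 arrays per group) by the start of its host gene symbol (x axis, with the number of circRNAs). Blue and orange points are from the lower and higher tables, grey points from the HuD-bound list alone, and outlined diamonds are HuD-bound. Zbtb points are all above and Zkscan points all below 0, most of them fixed by the table they came from.

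HuD KO replicate 3 stood apart from the other HuD KO arrays in many of the table circRNAs. Among the lower ones, it was the highest of the HuD KO arrays for 19 of the 29 and over 0.5 above both others for 12. The mean level of the 29 was -1.03, -0.90 and -0.50 on HuD KO arrays 1 to 3 and 1.24, 1.31 and 1.13 on WT arrays. Replicate 3 is also the array that was scanned alone. Zc3h12b mmu_circRNA_45621, the only table member not called, had levels of 3.13, 3.00 and 4.11 in HuD KO and 4.06, 4.07 and 4.20 in WT, so that replicate 3 overlapped with WT. Among the 34 higher circRNAs, replicate 3 was the lowest of the HuD KO arrays for 24 and over 0.5 below both others for 6. Its values were thus more often the nearest of the HuD KO arrays to WT in both sets. Without replicate 3, 31 of the 76 were called lower and 42 higher, against 39.4% and 28.9% of all probes.

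AU-rich elements are the motifs that Hu proteins are known to bind. On the printed strand of the 60 junction bases, ATTTA was present in 3 of the 76 sequences, or 3.95%, against 4.16% of all 3056. TTTTT was present in 1 of the 76, or 1.32%, against 5.14%. Neither was present in the 17 HuD-bound sequences, and they were present in 4.86% and 3.5% of all 658 sequences of the HuD-bound list. The letters were searched in this window only, on 1 strand, and the rest of the circles was not read.

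The authors' tables also name up to 5 miRNAs with predicted sites for each circRNA. Over the 63 table members 219 miRNAs were named, 177 of them for circRNAs of 1 host only. Those named for 4 or more hosts are printed with the seed (bases 2 to 8) in capitals, from the RefSeq miRNA table of GRCm38.p6, and no seed was shared between them.
mmu-miR-1903: cCUUCUUCuucuuccugagaca
mmu-miR-188-3p: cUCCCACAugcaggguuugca
mmu-miR-7009-3p: uCUUUUCCccucucccugcag

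mmu-miR-1903 was named for 6 of the 63, or 9.52%, against 8.44% of the 2488 circRNAs of both tables. mmu-miR-188-3p was named for 5 of the 63, or 7.94%, against 13 of 2488, or 0.523%. Those 5 came from Zfp282 in the lower table and from Zfp418, Zfp560, Zfp62 and Zfp871 in the higher table, all C2H2 genes. mmu-miR-7009-3p was named for circRNAs of Zc3h12c, Zfp609, Zfp62 and Zkscan5, or 6.35%, against 0.965%. These miRNAs were picked after their counts were seen, the sites are predictions in the tables, and no miRNA was measured.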

How the data were processed

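Striatal RNA of 3 HuD KO and 3 WT mice was measured on 1-colour arrays, grouped by the sample titles. Per the labels, RNase R removed linear RNA before labelling with Cy3. Agilent Feature Extraction (version 11.0.1.1) gave the deposited spot intensity values, from which the software had taken the local background, with no step to make arrays comparable. The authors also deposited tables of lower and higher circRNAs with normalized log2 values per sample, for which the submitters' processing notes name limma with no role and no normalization method is given in the sources used here, and with p-values, FDR and fold changes of their own comparison, which were not used. Columns of other samples numbered 0. From the study's HuD-bound list, made at a fold and p threshold, only membership, annotation and sequence were taken, and the copy used here held 658 circRNAs, fewer than the paper describes (the others were not analysed here).

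Levels were log2 intensity minus the 75th percentile of the circRNA probes of the array, with outlier spots left out (3 to 95 per array). Kept were probes that all 3 arrays of either group, or of both, read well above background, with 2 or more values per group. They were fitted with limma 3.58.1 in R 4.3.3, without covariates, and p-values were adjusted by Benjamini-Hochberg over 13431 probes at a threshold of 0.05. The fit was run on simulated data in which few probes changed and noise was independent. No scan effect was simulated, so that run does not bear on scan and genotype. Precision is limited by the number of arrays. For the normexp alternative (offset 50) the median spot and background intensities were used, since the mean is not in the files.

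The zinc finger circRNAs, the gene lists and the rule for naming circRNAs were chosen with earlier results of these data known. Named were the HuD-bound circRNAs, the 8 largest rises and 8 largest falls of the table members without overlap, the largest change for each symbol group, and circRNAs of hosts with 3 or more members or with both directions, 45 in all. Other named circRNAs were chosen after their values were seen.

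Alternatives were other background corrections, scalings and filters, outlier spots kept, the methods' t-test, scan as a random block, replicate number as a block, array weights, each array left out, and the authors' normalized values. The labels do not pair animals by replicate number. The marker list for cortical neurons is not reported here.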

Additional observations from a re-analysis of the deposited data

How the results depend on the processing

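Among the 45 named circRNAs, 27 kept their direction and their side of the threshold under all 19 alternatives with a test, and Zfp191 and Zfp458 did so under the 18 that could be fitted for them. All of these were in the authors' tables, chosen on the same comparison, so that their calls would hold was largely fixed in advance. None of the 13 circRNAs in the HuD-bound list alone kept both under every alternative. Of 8 that changed sign, 7 did so only with scaling on the control probes, which shifts all probes alike. The scaling moved the median change of all probes from -0.82 on the circRNA control probes to 0.41 with no scaling, against -0.11. On the control probes, called lower and higher zinc finger circRNAs numbered 34 and 29, the bound ones 7 and 2 (63.5% and 6.02% of all probes), and the median of the bound ones was -0.17. There Zc3h7b mmu_circRNA_28856 was at -0.02, Zeb2 mmu_circRNA_33495 at -0.64, Zfp106 mmu_circRNA_34355 and mmu_circRNA_002523 at -0.50 and -0.53, Zfp148 mmu_circRNA_000155 and mmu_circRNA_19164 at -0.17 and -0.12, Zfp382 mmu_circRNA_41274 at -0.33 and Zfp609 mmu_circRNA_004501 at -0.11. With no scaling, 2 bound circRNAs were called lower and 12 higher (19.0% and 39.8% of all probes), and the median of the bound ones was 1.06. That median was 0.74 with median scaling, 0.30 with quantile normalization and 0.29 with normexp and quantile normalization, where all probes had medians of 0.09, 0.12 and 0.06. Zeb2 mmu_circRNA_33495 was at -0.09 with normexp, -0.10 without HuD KO replicate 1 and -0.12 without WT replicate 1. The cause of these changes was not tested.

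Leaving out each array in turn gave 28 to 31 lower and 40 to 42 higher calls. Of all probes, 32.2% to 39.4% were then lower and 20.4% to 28.9% higher. The bound ones had 3 to 4 lower and 8 to 10 higher calls, and a median of 0.47 to 0.55. Replicate numbers only name the animals, and deviations of arrays with the same number correlated at -0.01, -0.03 and -0.08. With the replicate number as a block, 31 were called lower and 41 higher (35.6% and 23.8% of all probes), and the bound calls were 4 and 9. With scan as a random block, 28 were called lower and 39 higher (30.9% and 18.3% of all probes), 3 and 7 of them bound. No scan held arrays of both genotypes, so this block cannot separate a difference between scans from the genotype. Dim probes such as Zfp191 and Zfp458 limit how exactly a large fall can be sized.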

Other observations

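Other hosts with zinc finger proteins, outside the naming rule (Zcchc, Zfyve, Zswim, Zmat, Klf, Prdm, Bcl11, Mbnl and others from a fixed list), gave 26 circRNAs from 21 hosts. Of these 13 were called lower and 9 higher, against 37.2% and 26.1% of all probes, with a median change of -0.69. The tables chosen on this comparison supplied 12 of them as lower and 7 as higher. The HuD-bound ones among them numbered 7, of which 2 were called higher and 1 lower, with a median of 0.38. No difference from the zinc finger circRNAs was tested.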
